A study of Schizosaccharomyces pombe with 12 samples.

Results

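Described here are 7 genes of the fission yeast Schizosaccharomyces pombe that act in the uptake of vitamins or in the making of NAD from them. They are 5 transporter genes (tna1, SPCC576.17c, SPBC1683.12, liz1 and vht1) and 2 enzyme genes of NAD metabolism (pnc1 and qns1), out of 6936 genes in the deposited tables. Of these, tna1 and SPCC576.17c were chosen by their measured rise against ntu_WT in both knockouts. Their values and calls against wild type are therefore a description, and nothing is read from their tests. The other 5 were added by name as relatives or as genes of the same pathway, with results of these data known. By the annotation, tna1 and SPBC1683.12 encode plasma membrane transporters of nicotinic acid, and SPCC576.17c encodes a transporter of pyridoxine, pyridoxal and pyridoxamine, the forms of vitamin B6. Liz1 is the pantothenate transporter, and vht1 encodes the transporter of vitamin H, which is biotin. Pnc1 is the nicotinamidase, and qns1 encodes the glutamine-dependent NAD synthetase.

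NAD is the cofactor that carries electrons in metabolism and is consumed by sirtuin deacetylases. Nicotinic acid brought in across the plasma membrane, or released from nicotinamide by nicotinamidase, is turned into NAD by the Preiss-Handler pathway, whose closing step is the NAD synthetase. Fission yeast has no pathway from tryptophan to NAD and is kept in the laboratory on media that supply nicotinic acid, pantothenate and biotin.

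Messenger RNA was sequenced from cultures growing exponentially in YES, a rich medium made from yeast extract, at 30 °C. There were 12 libraries in 4 groups of 3. The group ntu_WT was h+ and carried ade6-M210 beside leu1-32 and ura4-D18. The group ntu1_KO was h+ with ade6-M216 and ntu1 replaced (ntu1D::kanMX), and ntu2_KO was the same but for ntu2D::kanMX in place of that deletion. A further wild type, wt_WT, was h- with ade6-704. All 4 groups carried leu1-32 and ura4-D18, and neither wild type carried the ade6-M216 allele of the knockouts, so the deletion and that allele cannot be told apart. One strain name stands in the labels of both wild types, and the labels do not say whether the knockouts are 1 clone each. Replicates are not stated to be separate cultures, so p-values measure the spread between these libraries, which may be technical. In the annotation ntu1 is a regulatory protein and ntu2 a membrane-tethered transcription factor.

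Libraries held from 3177147 (ntu2_KO replicate 1) to 11782294 estimated counts (wt_WT replicate 3), and all 3 wt_WT libraries were deeper than every other library. Each deleted gene was lowest in the knockout named for it, though signal remained there, and its source was not tested. In counts scaled to a library total of 1000000 (CPM), ntu1 was at 93.2 ± 3.78 in ntu_WT and 10.4 ± 1.70 in ntu1_KO, and ntu2 was at 219.0 ± 14.6 in ntu_WT and 45.8 ± 7.50 in ntu2_KO (mean ± SD, n = 3 each). All 7 genes passed the low-count filter. The smallest count among them was 92, for SPBC1683.12 in ntu2_KO replicate 1, with an exact Poisson 95% interval of 74.2 to 113 that covers counting error only. None of the 31-base words of the 7 genes occurred elsewhere in the reference genome, so their reads are not shared with near copies.

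Transcript levels per gene length were set side by side first, in transcripts scaled to a sum of 1000000 per library (TPM). In ntu_WT the order of mean levels was vht1, qns1, liz1, tna1, pnc1, SPCC576.17c and SPBC1683.12. The biotin transporter gene vht1 stood apart at 579.6 ± 13.9 TPM, and qns1 followed at 63.6 ± 1.60 TPM and liz1 at 39.3 ± 2.80 TPM. Below these, the libraries of tna1 (15.0 to 19.1 TPM), pnc1 (13.2 to 13.9 TPM) and SPCC576.17c (9.67 to 15.2 TPM) lay close together, and SPCC576.17c overlapped with both of the others. In both knockouts tna1 was the highest of the 7 on average, vht1 came next and SPCC576.17c followed, while the order of the other 4 was the same as in ntu_WT. In ntu2_KO the ranges of tna1 (841.0 to 1023 TPM) and vht1 (576.6 to 965.3 TPM) overlapped.

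**Figure D1:**
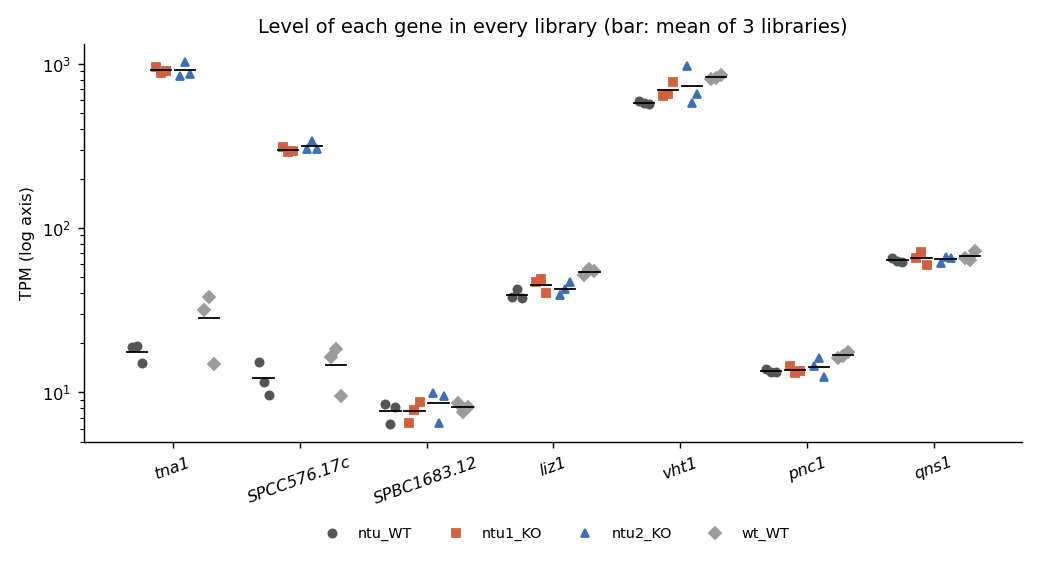
Level of each of the 7 genes in all 12 libraries, in TPM on a log axis, with 1 point per library, 4 groups side by side and a bar at the mean of each group of 3. The knockout libraries of tna1 and SPCC576.17c lie far above both wild types, while the groups of SPBC1683.12, liz1, vht1, pnc1 and qns1 lie within a range of at most 1.70-fold over all 12 libraries.

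The nicotinic acid transporter gene tna1 was at 17.7 ± 2.29 TPM in ntu_WT and at 913.4 ± 35.9 and 910.2 ± 98.5 TPM in ntu1_KO and ntu2_KO (mean ± SD, n = 3 each). Its levels in replicates 1, 2 and 3 were 18.95, 19.08 and 15.04 TPM in ntu_WT, 952.8, 882.7 and 904.6 TPM in ntu1_KO, and 841.0, 1023 and 866.6 TPM in ntu2_KO. In wt_WT they were 31.5, 38.0 and 14.9 TPM. The 6 knockout libraries overlapped with no wild-type library, and wt_WT replicate 3 lay at the level of ntu_WT while the other two wt_WT libraries were higher. The log2 fold change against ntu_WT was 5.68 ± 0.10 (SE, 51.4-fold) in ntu1_KO and 5.65 ± 0.10 (50.3-fold) in ntu2_KO. Against wt_WT it was 5.11 ± 0.29 and 5.08 ± 0.29. Ranked by TPM over all genes, tna1 moved from places 4292 to 4522 in ntu_WT to places 218 to 244 in the knockouts.

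SPCC576.17c, the vitamin B6 transporter gene, showed the same kind of step from a lower level. It stood at 15.2, 11.5 and 9.67 TPM in ntu_WT, at 312.9, 288.1 and 295.8 TPM in ntu1_KO, and at 301.8, 336.4 and 302.7 TPM in ntu2_KO. The wt_WT libraries were at 16.4, 18.2 and 9.46 TPM, so the wild types overlapped with each other and with no knockout library. The log2 fold change against ntu_WT was 4.63 ± 0.11 (24.7-fold) in ntu1_KO and 4.68 ± 0.11 (25.6-fold) in ntu2_KO, and against wt_WT 4.42 ± 0.20 and 4.47 ± 0.20. Its place by TPM went from 4552 to 4952 in ntu_WT to 465 to 541 in the knockouts. A non-coding gene on the opposite strand, SPNCRNA.1263, overlaps it, and had log2 changes of -0.26 ± 0.12 and -0.45 ± 0.13 against ntu_WT that did not pass (edgeR adjusted p = 0.846 and 0.171). It was lower in ntu2_KO than in wt_WT by 0.49 on the log2 scale (log2 change -0.49 ± 0.11, adjusted p = 0.0156).

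SPBC1683.12 is the gene closest to tna1 in sequence among the 5 transporters and carries the same annotated product. The proteins predicted from the reference annotation are identical at 201 of 478 aligned residues (42.1%), against 26.3% to 33.1% in the other 9 pairs of the 5. Its levels were 8.45, 6.39 and 8.14 TPM in ntu_WT, 6.47, 7.76 and 8.69 TPM in ntu1_KO, 9.84, 6.48 and 9.50 TPM in ntu2_KO, and 8.62, 7.60 and 8.15 TPM in wt_WT. All 4 groups overlapped. The log2 fold change against ntu_WT was -0.03 ± 0.17 in ntu1_KO and 0.12 ± 0.18 in ntu2_KO, with 95% intervals of 0.761 to 1.27-fold and 0.837 to 1.40-fold. SPCC576.17c, the gene that stepped up with tna1, has a protein identical to that of tna1 at only 27.7% of aligned residues.

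The pantothenate transporter gene liz1 had 38.1, 42.5 and 37.3 TPM in ntu_WT, 46.6, 49.1 and 40.01 TPM in ntu1_KO, and 38.9, 42.55 and 46.6 TPM in ntu2_KO. Both knockouts overlapped with ntu_WT, and the log2 fold changes were 0.19 ± 0.09 (edgeR unadjusted p = 0.0503, adjusted p = 0.841) and 0.10 ± 0.09 (adjusted p = 0.811). The wt_WT libraries, at 51.6, 55.9 and 54.5 TPM, were above all 9 others in TPM. In CPM, wt_WT replicate 1 (95.62) was below ntu1_KO replicate 2 (96.15).

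The biotin transporter gene vht1 had 1261, 1236 and 1260.0 CPM in ntu_WT and 1326, 1373 and 1653 CPM in ntu1_KO. In ntu2_KO it had 1960.0, 1183 and 1402 CPM, with replicate 1 above every other library. All ntu1_KO libraries were above those of ntu_WT, while ntu2_KO replicate 2 was below them. In TPM that ntu2_KO library, at 576.6, lay within the ntu_WT range of 567.7 to 594.9. The log2 fold changes against ntu_WT were 0.21 ± 0.18 and 0.27 ± 0.18 and did not pass (edgeR adjusted p = 0.985 and 0.725). Their 95% intervals of 0.859 to 1.56-fold and 0.895 to 1.63-fold were the widest of the set in ntu1_KO and ntu2_KO.

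The NAD enzymes did not pass in either knockout against ntu_WT. The nicotinamidase gene pnc1 was at 13.5 ± 0.34 TPM in ntu_WT, 13.7 ± 0.73 in ntu1_KO and 14.3 ± 1.89 in ntu2_KO (n = 3 each), with log2 fold changes of 0.02 ± 0.10 and 0.06 ± 0.11. The synthetase gene qns1 was at 63.6 ± 1.60, 65.2 ± 5.97 and 64.3 ± 3.14 TPM, with log2 fold changes of 0.01 ± 0.07 and -0.02 ± 0.07. Libraries of the 3 groups overlapped for both genes. For qns1 the 95% intervals were 0.913 to 1.12-fold and 0.892 to 1.10-fold, the narrowest of the set. The annotated pnc1 gene spans 3524 bases for a protein of 220 residues and overlaps with ppk29 and SPBC557.05 on the opposite strand, neither of which passed against ntu_WT.

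Calls were made with edgeR's quasi-likelihood test at a Benjamini-Hochberg adjusted p under 0.05 over all genes and a change of at least 2-fold. Of the 7 genes, 2 were called in ntu1_KO against ntu_WT and the same 2, tna1 and SPCC576.17c, in ntu2_KO. Among all 5808 genes tested, 0.224% and 0.155% were called in these comparisons, and since these contrasts chose both genes nothing is read from the counts. Both comparisons share the ntu_WT libraries. None of the other 5 had an unadjusted p under 0.05 in either, where 5.89% and 9.06% of all genes did. Against wt_WT, 2 of 7 were called in each knockout, where 1.0% (ntu1_KO) and 0.424% (ntu2_KO) of 5899 genes were called. The 2 were again tna1 and SPCC576.17c, chosen by high values in the same knockout libraries, so nothing is read from this count either. Also against wt_WT, the log2 fold change of pnc1 was -0.20 ± 0.09 in ntu1_KO (unadjusted p = 0.0397, adjusted p = 0.221), and that of liz1 was -0.25 ± 0.08 in ntu2_KO (unadjusted p = 0.00627, adjusted p = 0.103). Without ntu2_KO replicate 3, the liz1 value became -0.35 and passed (adjusted p = 0.0154). For vht1 it was -0.16 ± 0.16 in ntu2_KO, and without ntu2_KO replicate 1 it became -0.38 and passed (adjusted p = 0.0259).

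**Figure D2:**
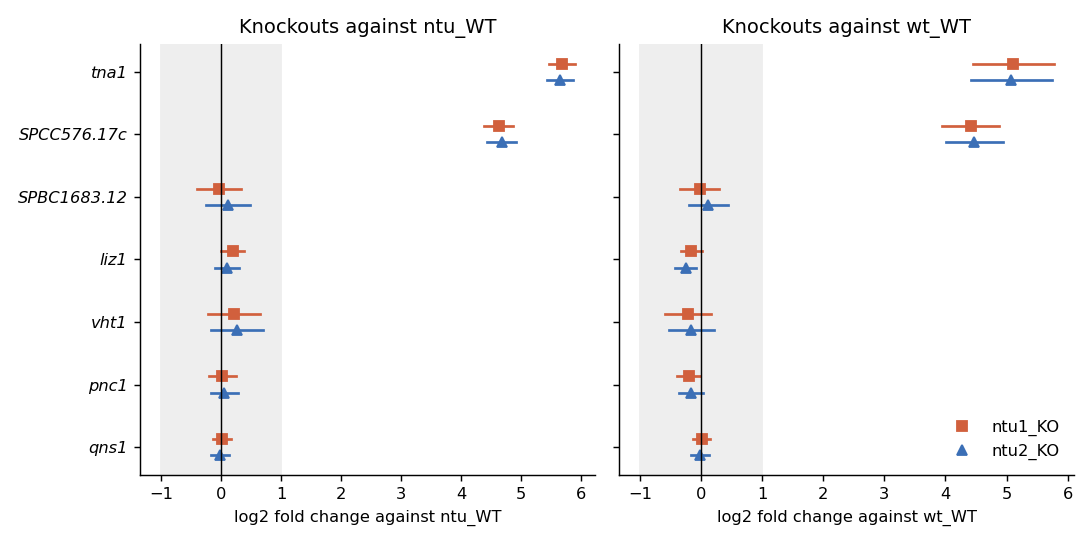
Log2 fold change of each gene in ntu1_KO (squares) and ntu2_KO (triangles), against ntu_WT on the left and wt_WT on the right, with lines for the 95% interval and grey for changes under 2-fold. Values of tna1 and SPCC576.17c lie between 4.42 and 5.68, and the other 5 genes lie inside the grey band with intervals that also stay inside it.

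The difference between the knockouts was tested directly. For tna1 and SPCC576.17c the choice asked for a rise in both knockouts, so it is not independent of this difference. Their values here are therefore a description. None of the 7 was called in ntu1_KO against ntu2_KO, where 0.103% of 5808 genes were called, and none had an unadjusted p under 0.05 with edgeR, where 6.66% of all genes did. DESeq2 called none of the 7 either. For tna1 the log2 difference was 0.03 ± 0.08, with a 95% interval of 0.913 to 1.14-fold, and for SPCC576.17c it was -0.05 ± 0.09, with an interval of 0.847 to 1.10-fold. The widest interval was that of vht1, from 0.710 to 1.29-fold.

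The wild types were compared with each other to see how far the genes vary without either deletion. None of the 7 was called in wt_WT against ntu_WT, where 1.03% of 5899 genes were called. At the adjusted p alone, which 8.24% of all genes passed, 1 of 7 passed. That gene was liz1, higher in wt_WT by 0.36 ± 0.08 on the log2 scale (1.28-fold, edgeR adjusted p = 0.00880). Without wt_WT replicate 2 its adjusted p was 0.0614.

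In the same comparison vht1 differed by 0.43 ± 0.16 (unadjusted p = 0.0284, adjusted p = 0.155), and its wt_WT libraries, at 802.3, 817.8 and 854.7 TPM, were all above those of ntu_WT. A fit of these 2 groups alone gave vht1 the same 0.43 with an adjusted p of 3.24e-07. For pnc1 the difference was 0.22 ± 0.09 (unadjusted p = 0.0233, adjusted p = 0.139), and its wt_WT libraries (16.1 to 17.6 TPM) were again all above ntu_WT (13.2 to 13.9 TPM). The levels of tna1 differed by 0.57 ± 0.32 (adjusted p = 0.321), and without wt_WT replicate 3 by 0.88 (adjusted p = 0.000627). That difference, and that of SPCC576.17c given next, share the ntu_WT libraries with the contrasts that chose these genes. Both are therefore a description. SPCC576.17c (0.21 ± 0.25), SPBC1683.12 (-0.01 ± 0.15) and qns1 (0.00 ± 0.07) did not pass (adjusted p = 0.662, 0.981 and 0.984).

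The balance between tna1 and SPCC576.17c was followed as the ratio of their TPM. It was 1.25 to 1.65 in ntu_WT, 1.58 to 2.09 in wt_WT, 3.04 to 3.06 in ntu1_KO and 2.79 to 3.04 in ntu2_KO, so all knockout libraries were above all wild-type libraries. Since both genes were chosen for their change, the step from wild type to knockout is a description. The choice asked for a rise in both knockouts, so the comparison between them is not independent of it either. Between the knockouts the log2 ratio differed by 0.08 (1.61 against 1.53), with an exact two-sided permutation p of 0.2. Between wt_WT and ntu_WT it differed by 0.33, also with an exact permutation p of 0.2. That comparison shares the ntu_WT libraries with the contrasts that chose both genes, so it is a description too. With 3 libraries against 3 the smallest p is 0.1. Within groups, wt_WT replicate 3 was the lowest wt_WT library for both genes, 0.78 below its group mean for tna1 and 0.55 below for SPCC576.17c on the log2 scale. In ntu2_KO replicate 2 both were above the mean, by 0.16 and 0.09.

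**Figure D3:**
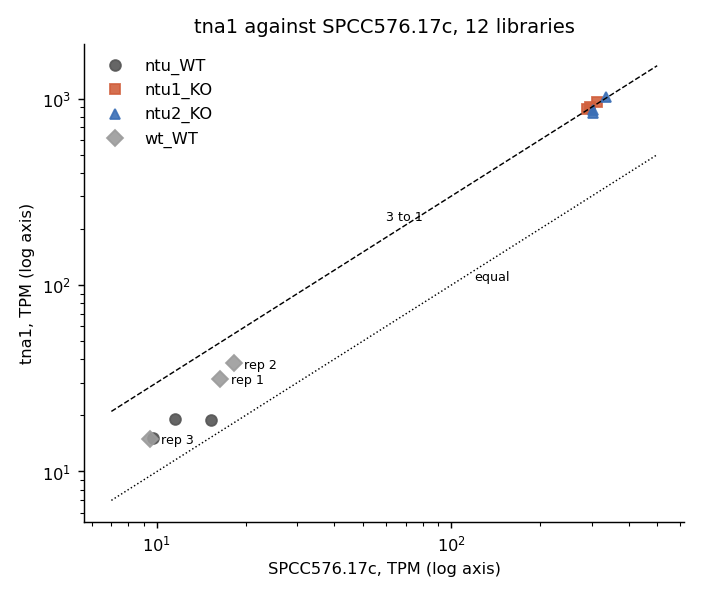
TPM of tna1 against TPM of SPCC576.17c in the 12 libraries, both axes log, with 1 point per library and lines for equal levels and for 3 to 1. Wild-type libraries lie between the lines, and all 6 knockout libraries lie close to the 3 to 1 line, with wt_WT replicate 3 among the ntu_WT points.

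Summed over the 5 transporter genes, transcript level was 656.4 ± 18.9 TPM in ntu_WT, 1953 ± 69.0 TPM in ntu1_KO, 2007 ± 140.8 TPM in ntu2_KO and 929.9 ± 17.0 TPM in wt_WT (n = 3 each). In the wild types vht1 made up most of this sum, 87.9% to 89.0% in ntu_WT and 87.2% to 90.8% in wt_WT. In the knockouts tna1 held 44.8% to 48.8% (ntu1_KO) and 39.0% to 51.5% (ntu2_KO), and vht1 held 32.5% to 38.2% and 29.0% to 44.8%. SPCC576.17c made up 1.52% to 2.25% of the sum in ntu_WT and 14.0% to 16.9% in ntu2_KO. The step in the sum comes mainly from tna1 and SPCC576.17c, which were chosen for their change, and was not tested. Mean vht1 was also higher, at 687.5 TPM in ntu1_KO and 731.6 TPM in ntu2_KO beside 579.6 TPM in ntu_WT. Relative to SPBC1683.12, the closest to it in sequence among these 5, tna1 was 1.85 to 2.98 times as high in ntu_WT and 104.0 to 147.0 times as high in ntu1_KO.

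**Figure D4:**
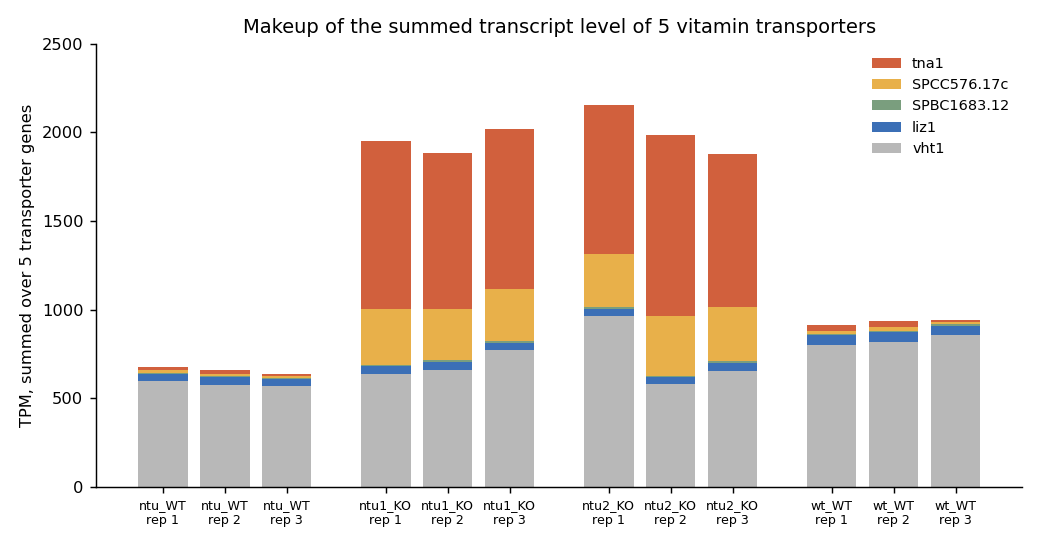
Summed TPM of the 5 vitamin transporter genes in each of the 12 libraries, with 1 bar per library divided by gene. The grey vht1 part fills most of each wild-type bar, and in the knockout bars tna1 and SPCC576.17c are stacked on a vht1 part of 576.6 to 965.3 TPM.

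Over the 12 libraries, the genes whose pattern was most like that of tna1 were ranked by Pearson's r of log2(CPM + 1) among 5898 genes. The libraries form a low and a high cluster for tna1, so r mainly reflects that step and is given as a description. SPCC576.17c came first with r = 0.998. It was followed by tlh2, a telomere-linked helicase gene (r = 0.951), uro1, the uricase (0.950), SPCC663.08c (0.939), and cho1, a phospholipid methyltransferase (0.914). Reads of tlh2 may be split among its subtelomeric copies, which makes its value uncertain, and its mean was 0.113 CPM in ntu_WT and 26.8 CPM in ntu1_KO. The most opposite genes were mal1, the maltase (r = -0.939), SPAC922.04 (-0.918), end3 (-0.887), rfp1, a subunit of a SUMO-targeted ubiquitin ligase (-0.869), and nte1 (-0.847). None of the other 5 genes of the set was near either end, with r of 0.07 for SPBC1683.12, 0.04 for vht1, -0.08 for liz1, -0.11 for qns1 and -0.29 for pnc1.

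The gap between knockout and wild-type libraries is given as a description, since tna1 and SPCC576.17c were chosen by their rise in these knockouts. In both, the lowest knockout library was above the highest of the 6 wild-type libraries, by 4.46 for tna1 and 3.99 for SPCC576.17c in log2(CPM + 1). Of 5899 genes, 30 (0.509%) were so separated, and 3 (0.0509%) by at least 2-fold on that scale, the third being tlh2 with a gap of 2.30. The change of tlh2 against ntu_WT did not pass in either knockout (edgeR adjusted p = 0.0815 and 0.0803). Its means were near the floor in both wild types, at 0.113 CPM in ntu_WT and 1.17 CPM in wt_WT. For uro1 the gap was 0.31, for SPCC663.08c 0.29 and for cho1 0.18. In SPBC1683.12, liz1, vht1, pnc1 and qns1 the knockout and wild-type libraries overlapped.

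Other members of the transporter superfamily were taken from protein similarity to the 5 transporters (blastp at E of at most 1e-10 over at least 50% of the query), which gave 28 genes, 24 of them tested. In ntu1_KO against ntu_WT, 1 of 24 passed at an adjusted p under 0.05, and 0.740% of all genes passed. That gene was SPAC11D3.18c, annotated as a carboxylic acid transporter, whose protein is 45.1% identical to that of tna1. Its levels were 13.4, 13.4 and 15.2 CPM in ntu_WT, 19.6, 25.3 and 23.4 CPM in ntu1_KO, 20.7, 18.04 and 17.2 CPM in ntu2_KO, and 26.6, 27.1 and 31.7 CPM in wt_WT. All other libraries were above those of ntu_WT, and wt_WT was the highest group.

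The log2 fold change of SPAC11D3.18c was 0.70 ± 0.15 in ntu1_KO (edgeR adjusted p = 0.0332) and 0.39 ± 0.15 in ntu2_KO (adjusted p = 0.408). In wt_WT it was 1.02 ± 0.13 above ntu_WT (adjusted p = 3.99e-05). Against wt_WT it was therefore lower in the knockouts, by -0.32 ± 0.13 in ntu1_KO (adjusted p = 0.153) and -0.63 ± 0.13 in ntu2_KO (adjusted p = 0.00883). The change in ntu1_KO against ntu_WT, which was under 2-fold, no longer passed when ntu1_KO replicate 2 or 3, or any of the 3 ntu_WT libraries, was left out (adjusted p = 0.09997 to 0.326). In ntu2_KO against ntu_WT 0 of 24 passed with edgeR, and 0.758% of all genes passed. An unadjusted p under 0.05 was found for 3 in ntu1_KO and 4 in ntu2_KO, beside 5.89% and 9.06% of all genes. Log2 changes of the 24 ran from -0.53 to 0.70 in ntu1_KO and from -0.50 to 1.34 in ntu2_KO. The highest in ntu2_KO was that of mfc1, named after its values were seen (edgeR adjusted p = 0.245). Mfc1 was at only 1.28 CPM in ntu_WT, and wt_WT was above ntu_WT by 1.05 (adjusted p = 0.0948). The medians of the 24 were -0.04 in ntu1_KO and 0.02 in ntu2_KO on the log2 scale, beside 0.00 over all genes. Against wt_WT, SPCPB1C11.03, a cysteine transporter gene also named after its values were seen, was higher in ntu1_KO (log2 change 0.38 ± 0.09, edgeR adjusted p = 0.0302). In ntu2_KO its change of 0.24 ± 0.10 did not pass (adjusted p = 0.225).

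Closer relatives by substrate did not pass against ntu_WT. Bsu1, a vitamin B6 import carrier whose protein is 43.6% identical to that of SPCC576.17c, was at 22.9 ± 4.29 CPM in ntu_WT, 22.2 ± 0.33 in ntu1_KO and 23.3 ± 2.44 in ntu2_KO. SPAC1B3.15c, annotated as a vitamin H transporter and 54.7% identical to vht1, was at 27.5 ± 1.65, 29.2 ± 2.51 and 30.0 ± 2.74 CPM. SPCC965.13, a pyridoxal family transporter 39.4% identical to SPCC576.17c, was at 212.3 ± 16.4, 204.6 ± 5.62 and 212.0 ± 19.1 CPM. Of 5 further vitamin transporters taken by annotated product, these last 2 included, 0 passed in either knockout against ntu_WT with edgeR. In each of these comparisons 1 had an unadjusted p under 0.05, where 5.89% and 9.06% of all genes did. That gene was SPCC794.03, a thiamine transporter, named after its values were seen. Its log2 changes were 0.40 ± 0.18 (adjusted p = 0.806) and 0.43 ± 0.18 (adjusted p = 0.451). In wt_WT it was higher than in ntu_WT by 0.71 ± 0.16 (adjusted p = 0.00865), at 16.04 ± 2.55 CPM against 9.74 ± 0.81. Another of the 5, thi9, a thiamine transporter also named after its values were seen, was lower in ntu1_KO than in wt_WT (log2 change -0.46 ± 0.11, adjusted p = 0.0144).

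Of 13 further genes of NAD metabolism, 0 passed in ntu1_KO or in ntu2_KO against ntu_WT with edgeR, and 1 in each had an unadjusted p under 0.05, where 5.89% and 9.06% of all genes did. That was SPAC694.03, annotated as a nicotinamide-nucleotide adenylyltransferase, at 22.3 ± 3.68 CPM in ntu_WT, 28.1 ± 2.20 in ntu1_KO and 27.7 ± 2.96 in ntu2_KO. Its log2 changes were 0.34 ± 0.14 and 0.32 ± 0.14 (adjusted p = 0.750 and 0.488), and wt_WT stood at 28.3 ± 1.72 CPM. The next largest mean changes were -0.09 for hst2, a sirtuin deacetylase, and -0.08 for SPAC806.06c. Against wt_WT, hst2 was lower in ntu1_KO (log2 change -0.28 ± 0.08, adjusted p = 0.0435). The nicotinate phosphoribosyltransferase gene npt1, whose enzyme brings nicotinic acid into the Preiss-Handler pathway, was at 176.4 ± 0.91, 177.9 ± 10.1 and 176.8 ± 14.1 CPM. The median log2 change of the list was 0.00 in ntu1_KO and 0.01 in ntu2_KO.

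Among 33 genes for other vitamins and their coenzymes, 1 passed in each knockout against ntu_WT, where 0.740% and 0.758% of all genes passed. At an unadjusted p under 0.05 there were 4 and 7, where 5.89% and 9.06% of all genes were. The gene that passed was thf1, the trifunctional enzyme of tetrahydrofolate interconversion. It was at 326.9, 342.8 and 304.8 CPM in ntu_WT, 425.2, 412.1 and 416.6 CPM in ntu1_KO, and 380.6, 405.5 and 424.5 CPM in ntu2_KO. The log2 fold changes were 0.36 ± 0.06 (edgeR adjusted p = 0.00410) and 0.32 ± 0.06 (adjusted p = 0.0199). The wt_WT libraries, at 410.1 to 427.7 CPM, were also above ntu_WT, by 0.37 (adjusted p = 0.000131), and lay among the knockout libraries. Both changes were under 2-fold and no longer passed without ntu_WT replicate 3 (adjusted p = 0.0534 and 0.156), and that in ntu2_KO also not without ntu_WT replicate 1 (adjusted p = 0.0608). The medians of the list were 0.01 and 0.03. Between the wild types, 7 of the 33 passed higher and 1 lower in wt_WT, where 8.24% of all genes passed. Against wt_WT, plr1, a pyridoxal reductase gene, was higher in ntu1_KO (log2 change 0.37, edgeR adjusted p = 0.00124) and ntu2_KO (0.34, adjusted p = 0.00438). Lower in ntu1_KO than in wt_WT were dfr1 (-0.32, adjusted p = 0.00994), bio2 (-0.18, adjusted p = 0.0372) and thi9. These genes were named after their values were seen.

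**Figure D5:**
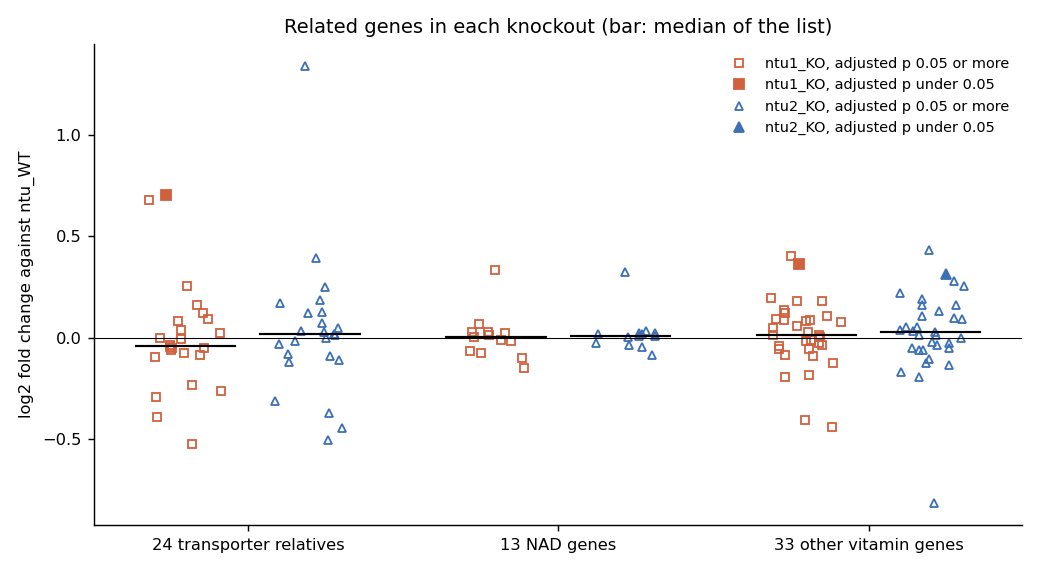
Log2 fold change against ntu_WT of the tested genes of the 3 related lists in ntu1_KO (squares) and ntu2_KO (triangles), filled where the edgeR adjusted p was under 0.05, with a bar at each list's median. The medians lie between -0.04 and 0.03, and the filled symbols are SPAC11D3.18c in ntu1_KO and thf1 in both knockouts.

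The annotated neighbours of the genes that stepped up were examined, 2 on each side. Annotated genes not matched to deposited counts were skipped. Among these are SPNCRNA.2827, SPNCRNA.2828 and SPNCRNA.2829, which overlap tna1 on the opposite strand and could not be checked. On one side of tna1, on chromosome I, lie urg2, a putative uracil phosphoribosyltransferase gene on the same strand, and then urg3. On the other side lie itt1 and med6. In CPM, urg2 was at 65.5 to 92.9 in ntu_WT, 133.9 to 202.0 in ntu1_KO, 142.6 to 181.9 in ntu2_KO and 226.9 to 240.5 in wt_WT. It was therefore highest in the wild type wt_WT, where tna1 was at 14.9 to 38.0 TPM. The log2 changes of urg2 were 1.05 ± 0.20 in ntu1_KO (edgeR adjusted p = 0.0950), 1.01 ± 0.20 in ntu2_KO (adjusted p = 0.122) and 1.57 ± 0.17 in wt_WT (adjusted p = 0.000663), all against ntu_WT. The wt_WT value comes from the fit of all 12 libraries, and in that fit urg2 also passed in ntu1_KO (adjusted p = 0.0269) and ntu2_KO (adjusted p = 0.0363).

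The next gene, urg3, passed in all 3 of these comparisons, by 0.60 ± 0.09 (adjusted p = 0.00283), 0.54 ± 0.09 (adjusted p = 0.00988) and 0.71 ± 0.08 (adjusted p = 2.40e-05). The change of urg3 in ntu2_KO no longer passed when ntu2_KO replicate 1 or 2 or ntu_WT replicate 2 or 3 was left out (adjusted p = 0.0604 to 0.0807). For urg2 in ntu1_KO, the change passed without ntu1_KO replicate 2 (adjusted p = 0.0384). Neither itt1 (0.11 and 0.11) nor med6 (-0.16 and -0.10) passed. Beside SPCC576.17c, on chromosome III, SPCC126.01c (0.22 and -0.01), pku70-antisense-1 (0.02 and 0.10) and SPNCRNA.1263 did not pass, and the pseudogene wtf22, at 0.630 CPM in ntu_WT, was too low to be tested in that fit.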

How the data were processed

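The authors deposited estimated counts per gene and TPM for the same 12 libraries. Per the submitters' processing notes, Salmon 1.9.0 and build ASM294v2 were used. The sources used here do not give the annotation release, the strand setting or any scaling of the counts. Of the non-zero deposited estimated counts 91.2% are not whole, and rounding changed no library total by more than 0.00271%. RefSeq's annotation of ASM294v3 gave names, products, neighbours and proteins (6727 of 6936 identifiers matched by locus tag, 4 by synonym). Because the builds differ, no coordinates are printed, and the planned search for shared promoter words was not run. Only genes overlapping on the opposite strand that the tables hold could be checked.

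The quasi-likelihood test of edgeR 4.0.16 (R 4.3.3; TMM, filterByExpr at a minimum count of 10, robust) was run on 9 libraries for comparisons among ntu_WT and the knockouts (5808 genes) and on all 12 for those with wt_WT (5899 genes). CPM used TMM-scaled library totals, and p-values were adjusted over all genes. Alternatives used DESeq2 1.42.0, limma 3.58.1 on log2(TPM + 1), other filters and scalings, and each library left out. Each pipeline was tested on simulated data.

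Named are the 7 genes, the deleted genes, listed genes at an adjusted p under 0.05 (or the 3 with the largest mean change of the knockouts), the neighbours, and the 5 genes most and least like tna1. Bsu1, SPAC1B3.15c, SPCC965.13, npt1 and the overlapping genes are named beside them for their substrate or position. The genes and lists were chosen with earlier results of these data known.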

Additional observations from a re-analysis of the deposited data

How the results depend on the processing

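The counts of called genes among the 7 were 2, 2, 0, 0, 2 and 2 in the 6 comparisons and did not move under any alternative. Each count of 2 is tna1 and SPCC576.17c, which were chosen by their rise in these knockout libraries. Nothing is therefore read from the counts of 2 holding, here or with the replicate block below. Replicate numbers did not pair the libraries (18 same-number pairs, r from -0.17 to 0.15 over 5899 genes, 2 above 0.1), and with the replicate block the counts were again 2 against ntu_WT in each knockout and 0 between the knockouts. Some values near 0 changed sign. In limma on log2(TPM + 1), qns1 was 0.0154 in ntu2_KO against ntu_WT and -0.0445 in ntu1_KO against wt_WT, and SPBC1683.12 was 0.0812 in wt_WT against ntu_WT, with or without the filter. With a pseudocount of 0.1 these were 0.0156, -0.0451 and 0.0913. In DESeq2 qns1 was -6.23e-05 in wt_WT against ntu_WT.

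Leaving out 1 library at a time turned some signs. In ntu1_KO against ntu_WT, values ran from -0.155 to 0.0698 for SPBC1683.12, from -0.0317 to 0.0664 for pnc1 and from -0.0501 to 0.0699 for qns1. In ntu2_KO against ntu_WT they ran from -0.0129 to 0.303, from -0.0427 to 0.142 and from -0.0518 to 0.0272 for the same genes. Between the knockouts they ran from -0.0354 to 0.117 for tna1, from -0.211 to 0.166 for vht1, from -0.0302 to 0.0897 for qns1 and from -0.125 to 0.0636 for pnc1. In wt_WT against ntu_WT they ran from -0.0634 to 0.0308 for qns1 and from -0.136 to 0.0645 for SPBC1683.12. Against wt_WT, qns1 ran from -0.0531 to 0.0711 in ntu1_KO and from -0.0508 to 0.0472 in ntu2_KO, and SPBC1683.12 from -0.122 to 0.0777 and from -0.0108 to 0.311.

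Against ntu_WT, changes that no longer passed the adjusted p in limma on TPM were those of SPAC11D3.18c in ntu1_KO (adjusted p = 0.0797 to 0.102), thf1 in ntu2_KO (0.0606 to 0.0731) and urg3 in ntu1_KO (0.0686 to 0.0883) and ntu2_KO (0.0948 to 0.121). In a fit of the 2 groups alone thf1 did not pass in ntu2_KO (0.0521). Urg2 passed in both knockouts with DESeq2 (1.96e-09 and 1.88e-08) and with all 12 libraries in the fit (0.0269 and 0.0363), in ntu2_KO also with the 2 groups alone (0.0130), and in ntu1_KO also in limma on log2(TPM + 0.1) (0.0488). Over all genes, DESeq2 called 16 in ntu2_KO against ntu_WT (9 with edgeR) and 11 between the knockouts (6 with edgeR). Without ntu2_KO replicate 3 these became 22 and 18, and 38 in ntu2_KO against wt_WT (25 with all libraries). In ntu1_KO against wt_WT the 59 became 39 without ntu1_KO replicate 3, 37 without wt_WT replicate 1 and 38 without wt_WT replicate 3. The cause of these shifts was not tested. In the knockouts against ntu_WT, the widest intervals among the 7 were those of vht1 and SPBC1683.12.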
